A study of Homo sapiens with 9 samples.

Results

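The genes described here are 57 protein-coding genes of distal chromosome 1q, from PPP1R12B to DESI2, in 3 related human breast epithelial lines. They were picked by name from the bands 1q32 to 1q44 because RNA from distal 1q was lower in MCF10AT1 than in MCF10A. That choice used measured values, so the level of these genes in MCF10AT1 is given as a description, and no test of it is used as support. The rule states no threshold. The 57 symbols matched 58 rows of the 62666 in the gene table, since TBCE is listed under 2 identifiers (ENSG00000284770 and ENSG00000285053) that overlap on the same strand and cannot be separated with certainty. All 58 rows had a position on chromosome 1 (GENCODE 29 on GRCh38) and passed the filter on low counts, and 57 had at least 10 counts in all 9 libraries. RHOU was the exception, with 2, 0 and 1 counts in MCF10Ca1a. Gene starts, taken as the lower coordinate of a gene, ran from 202348699 (PPP1R12B) to 244652935 (DESI2), a span of 42.3 Mb that held 272 tested genes in all.

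Polyadenylated RNA was sequenced in 3 libraries each of MCF10A, MCF10AT1 and MCF10Ca1a. MCF10A is a spontaneously immortalised, non-tumorigenic mammary epithelial line. MCF10AT1 carries an activated HRAS gene on the MCF10A background and serves as a model of premalignant disease. MCF10Ca1a comes from the same lineage and forms tumours. Each line stands for its stage alone, so a difference between lines cannot be told apart from a difference between stages. All lines were grown in DMEM/F12 with insulin, epidermal growth factor, hydrocortisone and cholera toxin. MCF10A and MCF10Ca1a were given 5% horse serum and MCF10AT1 was given 2.5%, so in comparisons with MCF10AT1 the serum and the line cannot be told apart. The labels do not say that the 3 libraries of a line came from separate cultures, so p-values measure the spread between libraries, which may be technical.

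The long arm of chromosome 1 is among the regions most often gained in breast carcinomas. Its distal end carries MDM4, an inhibitor of p53, the DNA damage sensor PARP1, the histone demethylase KDM5B and the kinase IKBKE, all studied as cancer genes, next to many housekeeping genes of translation, metabolism and membrane traffic. Neighbouring genes on a chromosome arm do not in general share a function, so the genes are described below by role. The values are RNA levels, and DNA was not analysed here.

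Library totals ran from 64.2 to 69.5 M (mega) counts in MCF10A, from 62.9 to 68.1 M in MCF10AT1 and from 32.9 to 35.2 M in MCF10Ca1a. HRAS, read as a check of the labels, had 44.0 ± 5.05 TPM (transcript level scaled for length and depth; mean ± SD, n = 3) in MCF10A, 98.4 ± 5.64 in MCF10AT1 and 189 ± 1.69 in MCF10Ca1a. The 8 epithelial markers were present in all lines, with summed means of 2213, 2964 and 2438 TPM in MCF10A, MCF10AT1 and MCF10Ca1a. Against MCF10A, the MCF10Ca1a mean was lower for KRT14 (4.78 against 205 TPM) and KRT5 (420 against 1423). It was higher for KRT8 (442 against 110), KRT18 (693 against 257), EPCAM (390 against 40.1), CDH1 (231 against 41.5), CDH3 (227 against 110) and TP63 (31.1 against 26.0). Of 11 markers of leukocytes, endothelium and fibroblasts, 8 stayed at or under 0.0934 TPM in every library, PTPRC, CD3E, VWF, CDH5 and PDGFRA among them. The other 3 were CD68, which reached 33.04 TPM and PECAM1, which reached 20.8 TPM, both in MCF10Ca1a libraries, and DCN, which reached 30.4 TPM in MCF10AT1. Summed by cell type, the leukocyte list had means of 10.8, 2.68 and 31.2 TPM in MCF10A, MCF10AT1 and MCF10Ca1a, the endothelial list 0.628, 1.02 and 18.7, and the fibroblast list 3.69, 28.1 and 0.391. The part of these differences in the results below was not tested. In bulk RNA, fewer cells that express a gene and less RNA per cell cannot be told apart.

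Along chromosome 1, the lower level in MCF10AT1 covered the long arm and not the short arm. The median log2 change of MCF10AT1 against MCF10A was 0.00 over 972 tested genes of the short arm, -0.58 over 504 genes of the long arm before PPP1R12B, -1.05 over the 58 listed rows, -0.88 over the other 214 tested genes of the same interval and -1.06 over 27 genes after DESI2. Over the 15393 tested genes with a position on another chromosome it was 0.01. Genes were placed in windows of 5 Mb by their transcription start, which on the minus strand is the higher coordinate. Among windows with at least 5 tested genes, the 10 windows from 200000001 to 250000000 had medians from -1.16 to -0.37. The 12 windows of the long arm nearer the centromere had medians from -0.73 to -0.18, and the 25 windows of the short arm from -0.18 to 0.52. Of 515 windows on other chromosomes, 1 lay below the median of the 10 distal windows, which was -0.86. The window with the lowest distal median, from 225000001 to 230000000, held 13 listed rows among 43 tested genes, ENAH to ABCB10 among them. The window from 215000001 to 220000000, which holds no transcription start of a listed gene, had the highest at -0.37 over 10 genes.

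**Figure D1:**
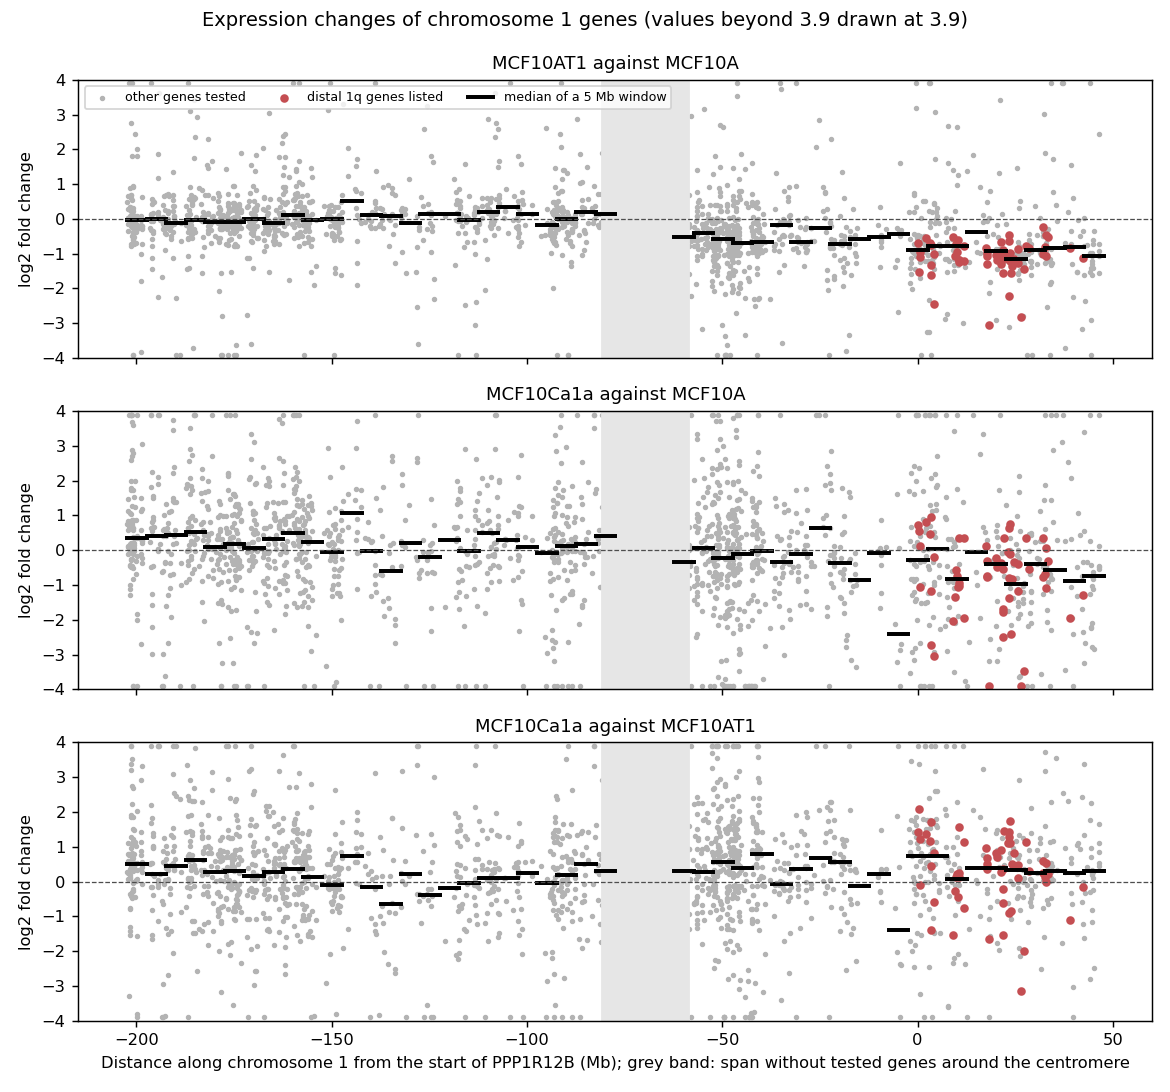
Log2 fold change of each tested gene of chromosome 1 (points, red for the listed distal 1q genes) against the distance of its start from that of PPP1R12B in Mb, for the 3 comparisons, with the median of each 5 Mb window (genes placed by transcription start) as a bar. In MCF10AT1 against MCF10A the 25 short-arm windows lie between -0.18 and 0.52 and the 10 distal windows between -1.16 and -0.37; the other comparisons show a wider scatter of single genes.

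The other 214 tested genes of the interval were not picked by name, but they belong to the region and the comparison that led to the choice, so their levels in MCF10AT1 are also a description with no test. Among their 162 protein-coding genes the median log2 change was -0.96, beside -0.88 over all 214. On log2(TPM + 1) the median of the 214 was -0.54. Tested protein-coding genes close outside the listed span were lower as well. UBE2T, a ubiquitin-conjugating enzyme of the Fanconi pathway, changed by -0.54, COX20, an assembly factor of cytochrome oxidase, by -1.13 and HNRNPU, a nuclear RNA-binding protein, by -0.34 on the log2 scale.

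Every one of the 58 listed rows had a lower mean in MCF10AT1 than in MCF10A, and the libraries of the lines did not overlap for any of them, against 34.0% of all tested genes. This follows from the choice of the genes, so the counts in this comparison only describe that choice, and nothing is read from them against the shares of all genes. In the fit of all 17910 tested genes by edgeR's quasi-likelihood test, 31.8% were lower and 29.8% higher at an adjusted p under 0.05. The choice put all 58 listed rows on the lower side of that threshold, which is no test of them. At least 2-fold lower were 32 of the 58 (8.64% of all tested genes), and none was at least 2-fold higher (9.36%). The median log2 change was -1.05, a ratio of 0.484, and the middle 50% of rows lay between -1.22 and -0.79. The range ran from -3.04 in MARK1 to -0.23 in IRF2BP2. In 47 of the 58 rows the log2 change lay between -1.5 and -0.5, against 14.2% of all tested genes. The change did not follow the position within the span: across the 58 rows Spearman's rank correlation with the start was 0.05, a description over genes that share the same 9 libraries. The median over the listed rows in each library, on log2 CPM (counts scaled to library depth) relative to the MCF10A mean, was -0.998, -1.02 and -1.07 in the MCF10AT1 libraries and 0.03, -0.01 and -0.03 in the MCF10A libraries.

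**Figure D2:**
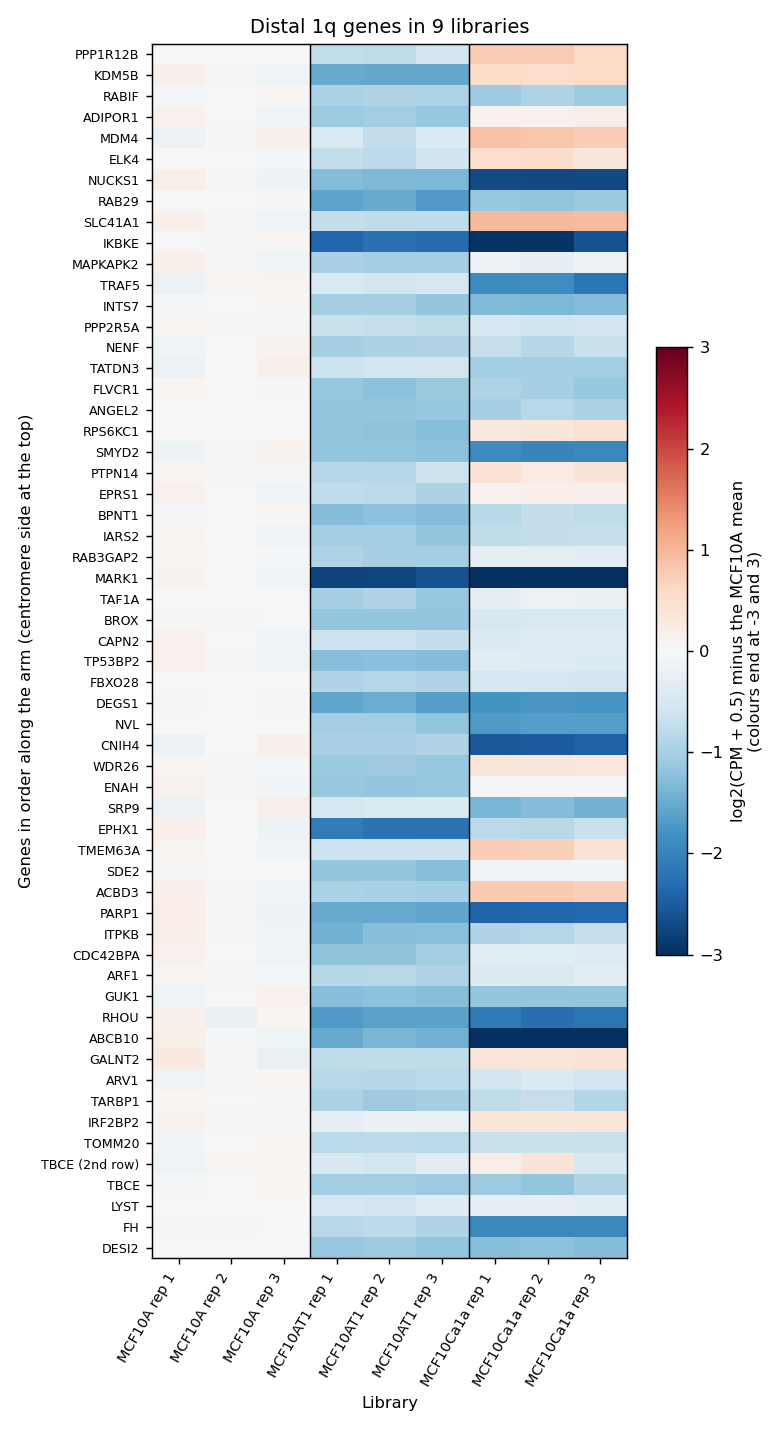
Log2(CPM + 0.5) of each listed row minus its MCF10A mean, in the 9 libraries (columns), with genes in order along the arm from the centromere side at the top. The 3 MCF10AT1 columns are blue in all 58 rows, and the MCF10Ca1a columns hold both red rows (such as SLC41A1 and MDM4) and dark blue rows (such as MARK1, ABCB10 and NUCKS1).

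In MCF10Ca1a the listed genes lay on both sides of their MCF10A level. Against MCF10A, 41 of 58 rows fell, 12 rose and 5 did not pass (edgeR's quasi-likelihood test, Benjamini-Hochberg over all genes). Over all tested genes 41.9% fell and 39.0% rose. This comparison does not hold the MCF10AT1 libraries but shares the MCF10A libraries with the one that chose the genes. Genes chosen for a high level in those libraries are favoured to lie lower in MCF10Ca1a as well, so the counts and the single-gene p-values below lean towards lower and are not independent of the choice. The median was -0.62 (ratio 0.652), beside -0.05 over all tested genes, and the middle 50% of rows ran from -1.25 to 0.04, a width of 1.30 beside 0.43 in MCF10AT1. At least 2-fold lower were 21 rows, against 21.7% of all tested genes, and none of the 58 was at least 2-fold higher, against 21.2%. In 20 rows the log2 change lay between -1.5 and -0.5, against 19.4% of all tested genes. The libraries of the lines did not overlap in 42 rows that were lower (42.3% of all tested genes) and 12 that were higher (39.2%). The per-library medians were -0.61, -0.63 and -0.62. The other 214 genes of the interval had a median of -0.42, with 116 that fell and 67 that rose, and on log2(TPM + 1) that median was -0.16. Their 162 protein-coding genes had a median of -0.70. For the 58 rows the log2(TPM + 1) scale gave a median of -0.45 with 36 rows lower and 14 higher, while over all tested genes the median there was 0.06 and so lay 0.11 above its value from counts.

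Taking the 3 line means of each row, 25 rows ran MCF10A, MCF10Ca1a, MCF10AT1 from high to low, 18 ran MCF10A, MCF10AT1, MCF10Ca1a and 15 ran MCF10Ca1a, MCF10A, MCF10AT1. MCF10AT1 was the lowest line in 40 rows and MCF10Ca1a in the other 18. The comparison of MCF10Ca1a with MCF10AT1 holds the MCF10AT1 libraries that chose the genes, which favours higher values in MCF10Ca1a, so it is a description and nothing is read from its counts against the shares of all genes. Its median over the 58 rows was 0.36. By the edgeR threshold 38 rows were on the higher side (38.0% of all tested genes) and 16 on the lower side (40.3%), and at least 2-fold higher were 15 rows (18.2%) and at least 2-fold lower 7 (19.5%). On log2(TPM + 1) its median was 0.61 with 9 rows lower (28.5% of all tested genes), beside a median of 0.13 over all tested genes. Summed over the 58 rows, the genes took 0.669% of all TPM in MCF10A, 0.322% in MCF10AT1 and 0.430% in MCF10Ca1a.

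**Figure D3:**
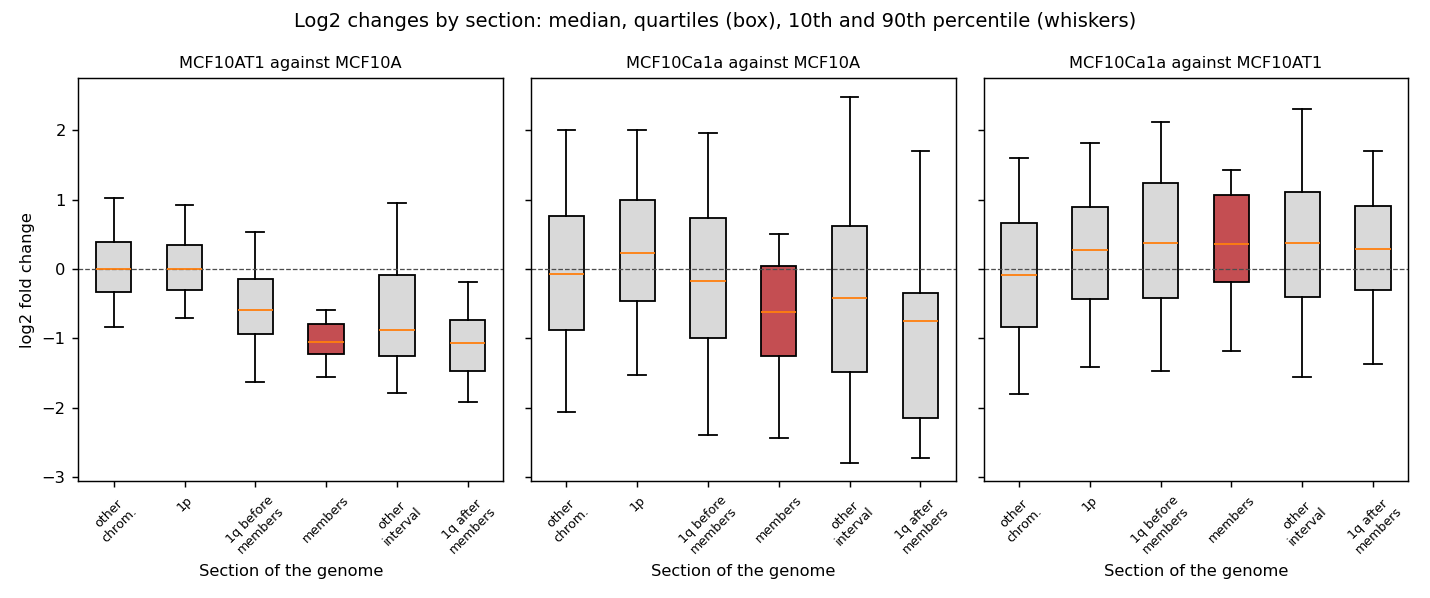
Log2 fold changes by section of the genome for the 3 comparisons (line: median, box: quartiles, whiskers: 10th and 90th percentile), with the listed distal 1q genes in red, labelled members. In MCF10AT1 against MCF10A the red box runs from -1.22 to -0.79, and in MCF10Ca1a against MCF10A it runs from -1.25 to 0.04.

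The 11 genes of transcription, chromatin and genome maintenance had a median log2 change of -1.21 in MCF10AT1 against MCF10A. In MCF10Ca1a, 6 of the 11 fell against MCF10A, 4 rose and 1 did not pass, and the median was -0.22, while over all tested genes 41.9% fell and 39.0% rose. The 4 that rose were MDM4, KDM5B, ELK4, an ETS factor that acts with serum response factor, and IRF2BP2, a transcriptional corepressor. The 6 that fell were NUCKS1, PARP1, SMYD2, INTS7, TP53BP2 and TAF1A. SDE2, a factor of replication forks and splicing, did not pass, with a log2 change of -0.10.

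PARP1 makes poly(ADP-ribose) at DNA breaks. Its level was 579, 483 and 453 CPM in the 3 MCF10A libraries, 176, 175 and 169 in MCF10AT1 and 94.9, 95.7 and 97.4 in MCF10Ca1a. All MCF10AT1 libraries lay below all MCF10A libraries, and all MCF10Ca1a libraries below both. In MCF10Ca1a it fell by 2.39 ± 0.08 on the log2 scale (SE; edgeR adjusted p = 3.84e-12). NUCKS1, a chromatin protein of homologous recombination, had 1303, 1114 and 1028 CPM in the 3 MCF10A libraries, 465, 451 and 452 in MCF10AT1 and 176, 174 and 175 in MCF10Ca1a. The lines again lay in the order MCF10A, MCF10AT1, MCF10Ca1a without overlap, and NUCKS1 fell by 2.71 ± 0.08 on the log2 scale (SE; edgeR adjusted p = 1.11e-12) in MCF10Ca1a against MCF10A. SMYD2 encodes a lysine methyltransferase whose substrates include p53. It had 127, 144 and 153 CPM in the 3 MCF10A libraries, 62.5, 61.5 and 59.4 in MCF10AT1 and 37.6, 35.3 and 36.6 in MCF10Ca1a, and fell by 1.95 ± 0.07 on the log2 scale (SE; edgeR adjusted p = 4.98e-12) in MCF10Ca1a.

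KDM5B removes methyl groups from lysine 4 of histone H3. Its level was 165, 146 and 137 CPM in the 3 MCF10A libraries, 51.5, 51.1 and 51.3 in MCF10AT1 and 219, 215 and 223 in MCF10Ca1a. MCF10AT1 was far below both other lines, and every MCF10Ca1a library was above every MCF10A library, a rise of 0.56 ± 0.06 on the log2 scale (SE; edgeR adjusted p = 1.56e-06). IRF2BP2 was the listed gene with the smallest difference in MCF10AT1, with 120.4, 107 and 107 CPM in the 3 MCF10A libraries, 92.8, 96.1 and 96.6 in MCF10AT1 and 143, 141 and 142 in MCF10Ca1a. The MCF10AT1 libraries lay just under those of MCF10A, and the MCF10Ca1a libraries above both, with a rise of 0.35 ± 0.05 on the log2 scale (SE; edgeR adjusted p = 3.89e-05) against MCF10A. The 250 bases before the start of PARP1 in RefSeq (GRCh38.p14, minus strand, chr1:226408094-226408343) are shown because PARP1 is low in both derived lines, with the letters of each GC box in capitals.
PARP1: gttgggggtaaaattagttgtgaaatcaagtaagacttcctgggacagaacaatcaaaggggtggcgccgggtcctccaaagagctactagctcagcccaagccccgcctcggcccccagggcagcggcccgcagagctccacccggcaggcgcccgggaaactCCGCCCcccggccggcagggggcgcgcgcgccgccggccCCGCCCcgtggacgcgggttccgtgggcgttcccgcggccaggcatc
This window held 26 CpG dinucleotides and GC boxes (GGGCGG or its complement) at 2 places, and no CCAAT or TATAAA.

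**Figure D4:**
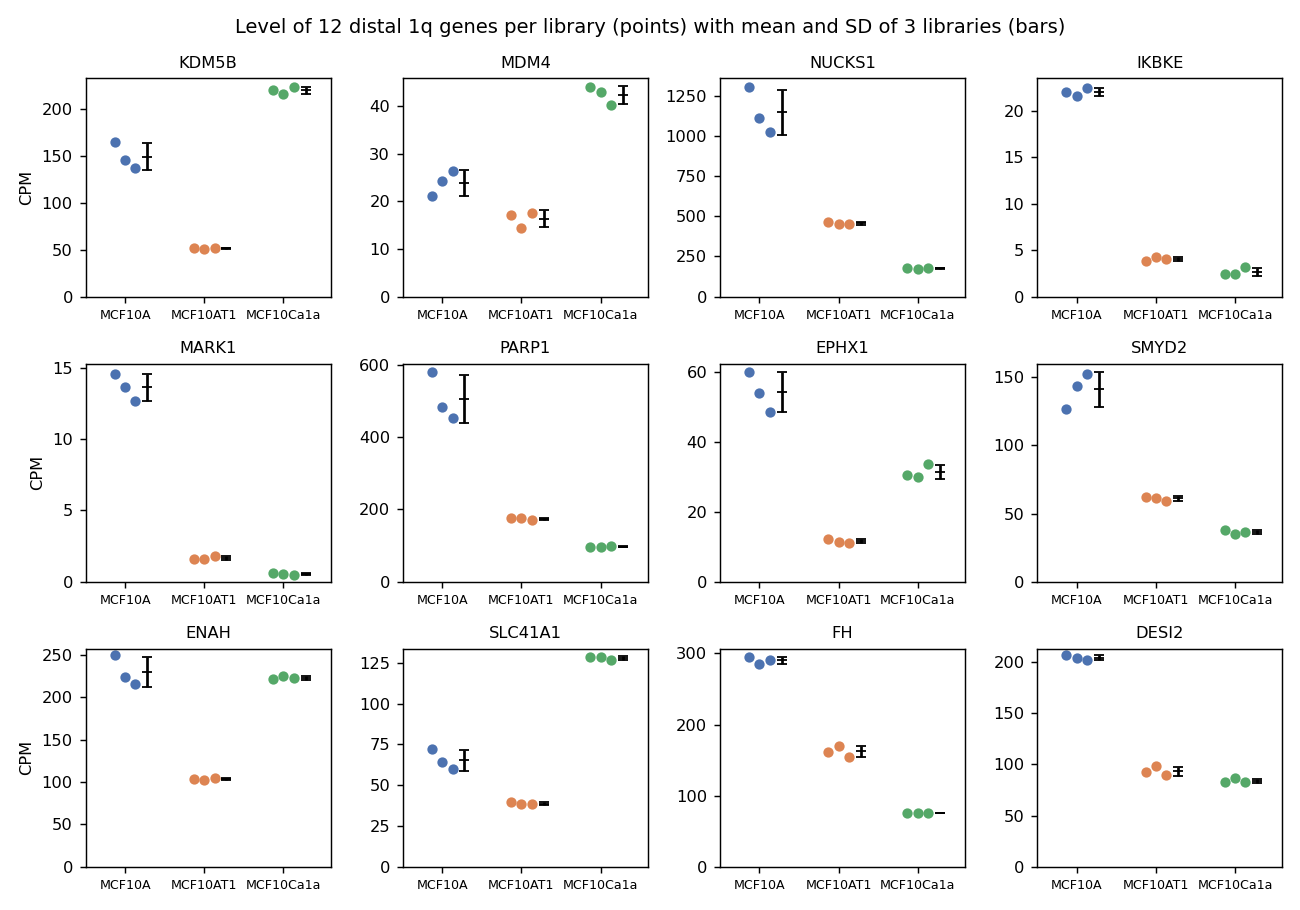
Level in CPM of 12 distal 1q genes in each library (points; scale from 0, different for each gene), with the mean and SD of the 3 libraries of a line. MCF10AT1 lies below MCF10A in every panel, while MCF10Ca1a lies above MCF10A for KDM5B, MDM4 and SLC41A1, beside it for ENAH, and below it for the rest.

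MDM4, which binds p53 and blocks its activity as a transcription factor, spans chr1:204516379-204558120 on the plus strand. Its total level was 21.0, 24.3 and 26.3 CPM in the 3 MCF10A libraries, 17.2, 14.4 and 17.6 in MCF10AT1 and 44.0, 42.9 and 40.3 in MCF10Ca1a. The MCF10AT1 libraries were below the MCF10A libraries and the MCF10Ca1a libraries above them, a rise of 0.83 ± 0.09 on the log2 scale (SE; edgeR adjusted p = 7.48e-07). The lines also differed in the transcripts they used. MDM4-203 codes for the full protein in 1470 bases. MDM4-205 lacks exon 6, which lies at chr1:204537430-204537497 and has 68 bases, a number that leaves a remainder of 2 on division by 3, so the reading frame shifts and the coding sequence is 420 bases long. The junction is shown with and without the exon, in the sense of the RNA from GENCODE 29 transcripts, with exon 6 in capitals between 30 bases of its neighbours.
MDM4-203 with exon 6: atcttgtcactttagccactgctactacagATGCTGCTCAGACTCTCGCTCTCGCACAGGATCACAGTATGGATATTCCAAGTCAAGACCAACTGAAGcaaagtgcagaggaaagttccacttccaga
MDM4-205 without exon 6: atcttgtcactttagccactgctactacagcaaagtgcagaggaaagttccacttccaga

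The share of MDM4 counts assigned to the full transcript MDM4-203 was 78.6, 69.8 and 66.7% in the 3 MCF10A libraries, 52.5, 47.0 and 43.7% in MCF10AT1 and 9.70, 9.78 and 6.44% in MCF10Ca1a. The transcript without exon 6, MDM4-205, took 4.43, 15.9 and 11.8% in the 3 MCF10A libraries, 36.5, 44.7 and 43.0% in MCF10AT1 and 73.6, 67.0 and 68.9% in MCF10Ca1a. The full form was the largest in every MCF10A library and the form without exon 6 in every MCF10Ca1a library, with the MCF10AT1 libraries in between for both. MDM4-209, which has no coding sequence in the annotation, was at 2.14% ± 2.12 (SD, n = 3) in MCF10A and 17.7% ± 3.76 in MCF10Ca1a, and MDM4-207 was at 10.3% ± 3.15 in MCF10A and at 0% in MCF10Ca1a. In TPM, MDM4-203 had 2.86 ± 0.0788 in MCF10A, 1.20 ± 0.184 in MCF10AT1 and 0.679 ± 0.179 in MCF10Ca1a. MDM4-205 had 0.438 ± 0.247, 1.04 ± 0.0927 and 5.48 ± 0.501. MDM4 usage differed between MCF10Ca1a and MCF10A at an adjusted p of 6.37e-05 (limma on the log2 ratio between each transcript and the other transcripts of its gene, Simes p per gene, Benjamini-Hochberg over 8349 genes). These shares are estimates from reads that fit several transcripts, and the uncertainty of that assignment was not used here.

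**Figure D5:**
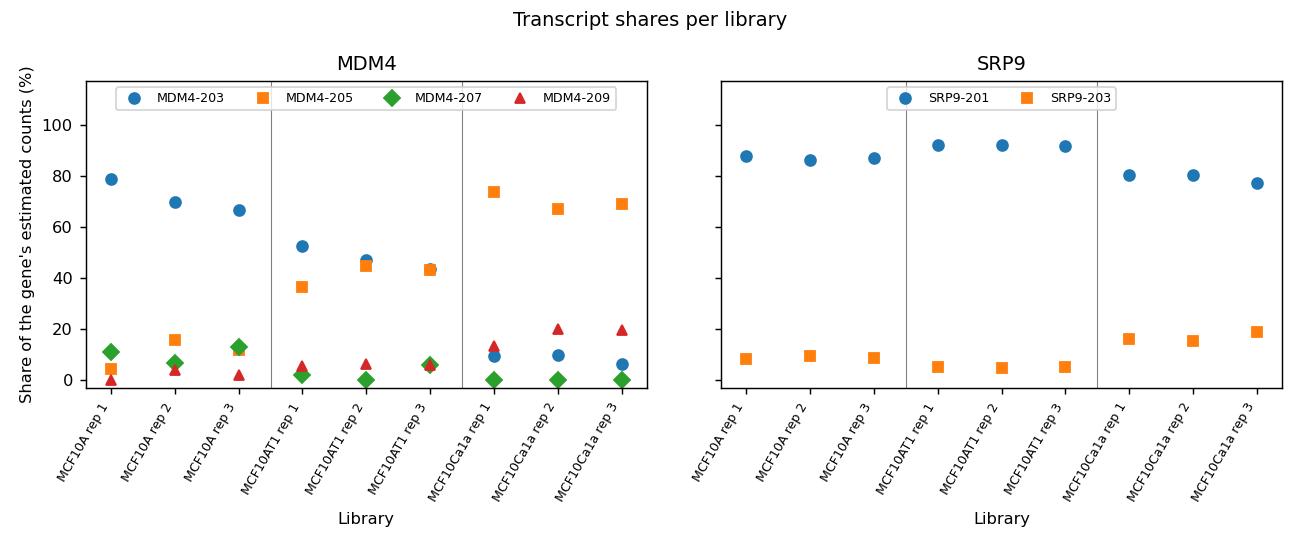
Share of the estimated counts of MDM4 and SRP9 held by each transcript kept for the test (percent of the gene, 1 point per library). MDM4-203 is the largest in the 3 MCF10A libraries and MDM4-205 in the 3 MCF10Ca1a libraries, and SRP9-203 is highest in MCF10Ca1a and lowest in MCF10AT1.

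The 11 kinases, phosphatases and signalling genes held the largest differences among the listed genes. Their median log2 change was -1.16 in MCF10AT1. In MCF10Ca1a 8 of the 11 fell against MCF10A and 3 rose (PPP1R12B, PTPN14 and RPS6KC1), beside 41.9% and 39.0% of all tested genes. The lowest were RHOU, MARK1 and IKBKE, followed by TRAF5. ITPKB, PPP2R5A, CDC42BPA and MAPKAPK2 fell by less, with log2 changes of -0.84, -0.57, -0.35 and -0.20.

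MARK1, a kinase that releases proteins from microtubules, had 14.6, 13.6 and 12.6 CPM in the 3 MCF10A libraries, 1.56, 1.60 and 1.80 in MCF10AT1 and 0.587, 0.535 and 0.451 in MCF10Ca1a. The log2 change was -3.04 in MCF10AT1, the lowest of the list, and in MCF10Ca1a the gene fell by 4.69 ± 0.13 on the log2 scale (SE; edgeR adjusted p = 6.53e-13). RHOU, an atypical small GTPase, had 2.17, 1.61 and 1.99 CPM in the 3 MCF10A libraries, 0.240, 0.287 and 0.290 in MCF10AT1 and 0.0559, 0 and 0.0282 in MCF10Ca1a. It was low in MCF10AT1 and near the detection limit in MCF10Ca1a. Its 382 counts in MCF10A against 3 in MCF10Ca1a give a level 67.2-fold higher in MCF10A (95% exact interval 22.8 to 327, counting error only). Against the 53 counts of MCF10AT1 the fold was 9.50 (3.08 to 47.5). IKBKE, a kinase of the innate immune and NF-kB pathways that has been studied as a breast cancer oncogene, had 21.97, 21.6 and 22.4 CPM in the 3 MCF10A libraries, 3.79, 4.24 and 4.08 in MCF10AT1 and 2.43, 2.41 and 3.19 in MCF10Ca1a. Both derived lines were below MCF10A without overlap, with a log2 change of -2.45 in MCF10AT1, and in MCF10Ca1a the gene fell by 3.04 ± 0.10 on the log2 scale (SE; edgeR adjusted p = 2.34e-12). TRAF5, an adapter of tumour necrosis factor receptors, differed little in MCF10AT1 and more in MCF10Ca1a: its level was 35.6, 41.9 and 42.6 CPM in the 3 MCF10A libraries, 28.98, 27.0 and 28.1 in MCF10AT1 and 10.2, 10.5 and 8.46 in MCF10Ca1a. It fell by 2.04 ± 0.09 on the log2 scale (SE; edgeR adjusted p = 5.13e-11) in MCF10Ca1a against MCF10A.

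PPP1R12B, a regulatory subunit of myosin phosphatase and the first gene of the span, had 18.9, 18.8 and 18.6 CPM in the 3 MCF10A libraries, 11.1, 10.9 and 12.6 in MCF10AT1 and 32.1, 32.3 and 28.9 in MCF10Ca1a. MCF10AT1 was lowest and MCF10Ca1a highest without overlap, a rise of 0.73 ± 0.06 on the log2 scale (SE; edgeR adjusted p = 1.34e-07) against MCF10A. PTPN14, a tyrosine phosphatase that binds YAP, had 134, 123.2 and 120.5 CPM in the 3 MCF10A libraries, 69.5, 68.9 and 80.3 in MCF10AT1 and 169, 149 and 163 in MCF10Ca1a. It rose by 0.35 ± 0.07 on the log2 scale (SE; edgeR adjusted p = 4.01e-04) in MCF10Ca1a. MAPKAPK2, the kinase that p38 activates, had 165, 146 and 136 CPM in the 3 MCF10A libraries, 75.9, 72.5 and 73.6 in MCF10AT1 and 131, 126 and 132 in MCF10Ca1a. Its MCF10Ca1a libraries lay just below those of MCF10A and it fell by 0.20 ± 0.06 on the log2 scale (SE; edgeR adjusted p = 0.0107), and on log2(TPM + 1) the log2 change was -0.05 and did not pass. RPS6KC1, a kinase-like protein that binds phosphoinositides, rose by 0.35 ± 0.05 on the log2 scale (SE; edgeR adjusted p = 1.87e-05).

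The 14 rows of vesicle traffic, cytoskeleton and secretion had a median log2 change of -0.95 in MCF10AT1. In MCF10Ca1a 10 fell against MCF10A, 2 rose (ACBD3 and GALNT2) and 2 did not pass (ENAH and the TBCE row ENSG00000285053). Of all tested genes 41.9% fell and 39.0% rose. ACBD3, a Golgi protein, had 96.5, 84.9 and 81.0 CPM in the 3 MCF10A libraries, 45.01, 44.4 and 42.9 in MCF10AT1 and 149.6, 149.9 and 144 in MCF10Ca1a. MCF10AT1 was lowest and MCF10Ca1a highest, a rise of 0.76 ± 0.06 on the log2 scale (SE; edgeR adjusted p = 5.07e-08). GALNT2, which starts O-linked glycosylation in the Golgi, rose by 0.36 ± 0.09 on the log2 scale (SE; edgeR adjusted p = 0.00250). RAB29, a small GTPase of the Golgi and lysosome, had 90.3, 89.9 and 86.9 CPM in the 3 MCF10A libraries, 29.3, 31.0 and 27.3 in MCF10AT1 and 39.9, 38.9 and 40.6 in MCF10Ca1a. It was the lowest of this group in MCF10AT1 at -1.61, and fell by 1.16 ± 0.05 on the log2 scale (SE; edgeR adjusted p = 1.14e-10) in MCF10Ca1a. CNIH4, a cargo receptor of the early secretory pathway, was the lowest of the group in MCF10Ca1a and fell by 2.51 ± 0.08 on the log2 scale (SE; edgeR adjusted p = 1.42e-12).

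ARF1, a GTPase that recruits Golgi coats, had 838, 779 and 778 CPM in the 3 MCF10A libraries, 439, 450.4 and 419 in MCF10AT1 and 604, 595 and 629 in MCF10Ca1a. It fell by 0.39 ± 0.06 on the log2 scale (SE; edgeR adjusted p = 2.20e-05) in MCF10Ca1a. LYST, a regulator of lysosome size, had 18.4, 18.1 and 18.5 CPM in the 3 MCF10A libraries, 12.6, 12.3 and 13.8 in MCF10AT1 and 15.1, 14.9 and 14.7 in MCF10Ca1a. It fell by 0.30 ± 0.06 on the log2 scale (SE; edgeR adjusted p = 3.38e-04), a call that did not pass on log2(TPM + 1), where the change was -0.20. ENAH, a regulator of actin filament growth at the leading edge, had 249.95, 224 and 215 CPM in the 3 MCF10A libraries, 104, 103 and 104 in MCF10AT1 and 221, 225 and 223 in MCF10Ca1a. The MCF10Ca1a libraries lay within the range of the MCF10A libraries, and the change did not pass, at -0.04 ± 0.06 (log2 change and SE, with an edgeR adjusted p of 0.491). Its sign was positive, at 0.19, on log2(TPM + 1). RABIF, BROX, RAB3GAP2 and ARV1 fell by 1.05, 0.47, 0.30 and 0.53 on the log2 scale in MCF10Ca1a. Of the TBCE rows, which stand for a tubulin folding cofactor, ENSG00000284770 fell by 1.07 ± 0.07 on the log2 scale (SE; edgeR adjusted p = 2.25e-09). ENSG00000285053 had 13.4, 15.4 and 14.9 CPM in the 3 MCF10A libraries, 10.3, 9.82 and 11.7 in MCF10AT1 and 16.8, 19.0 and 10.3 in MCF10Ca1a. Its log2 change was 0.07 ± 0.16 (log2 change and SE, with an edgeR adjusted p of 0.675) and did not pass, and replicate 3 of MCF10Ca1a lay apart from the other 2: without it the log2 change was 0.29 and passed, and without replicate 2 it was -0.11.

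SRP9, a subunit of the signal recognition particle that binds its Alu domain, was the listed gene with the highest level per length, at 1020 TPM in MCF10A, 657 in MCF10AT1 and 429 in MCF10Ca1a. In CPM it had 440.0, 497 and 555 CPM in the 3 MCF10A libraries, 349, 364 and 369 in MCF10AT1 and 191, 201 and 184 in MCF10Ca1a. It fell by 1.37 ± 0.08 on the log2 scale (SE; edgeR adjusted p = 7.99e-10) in MCF10Ca1a against MCF10A. Among the SRP9 transcripts tested, the share of SRP9-203 was 8.17, 9.42 and 8.74% in the 3 MCF10A libraries, 5.07, 4.94 and 5.20% in MCF10AT1 and 16.0, 15.5 and 19.0% in MCF10Ca1a. It was highest in the MCF10Ca1a libraries and lowest in those of MCF10AT1 without overlap. Usage differed between MCF10Ca1a and MCF10A at an adjusted p of 9.05e-04 (limma, Benjamini-Hochberg).

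All 4 receptors and transporters were lower in MCF10AT1, with a median of -0.92. In MCF10Ca1a SLC41A1 and TMEM63A rose against MCF10A, FLVCR1 fell and ADIPOR1 did not pass (39.0% of all tested genes rose and 41.9% fell). SLC41A1, a magnesium transporter, showed the largest rise of all listed genes, with 72.4, 64.0 and 59.6 CPM in the 3 MCF10A libraries, 39.6, 38.5 and 38.2 in MCF10AT1 and 128, 129 and 127 in MCF10Ca1a. The 3 lines did not overlap, and the rise was 0.97 ± 0.06 on the log2 scale (SE; edgeR adjusted p = 4.37e-09). TMEM63A, a mechanically gated ion channel, had 33.1, 31.5 and 29.9 CPM in the 3 MCF10A libraries, 19.8, 20.0 and 20.4 in MCF10AT1 and 53.0, 51.6 and 42.1 in MCF10Ca1a. It rose by 0.64 ± 0.08 on the log2 scale (SE; edgeR adjusted p = 2.94e-06), with MCF10Ca1a replicate 3 below the other 2 but above all MCF10A libraries. FLVCR1, a heme and choline transporter, fell by 1.04 ± 0.06 on the log2 scale (SE; edgeR adjusted p = 1.82e-09). ADIPOR1, the adiponectin receptor, had 283, 257 and 242 CPM in the 3 MCF10A libraries, 122.5, 126 and 118.3 in MCF10AT1 and 282, 283 and 294 in MCF10Ca1a. Its MCF10Ca1a libraries overlapped the MCF10A range, and the change was 0.14 ± 0.06 (log2 change and SE, with an edgeR adjusted p of 0.0546). The 250 bases before the start of SLC41A1 (RefSeq, GRCh38.p14, minus strand, chr1:205813199-205813448) are shown beside those of PARP1 because the levels of the genes lay on opposite sides of MCF10A in MCF10Ca1a, with GC box and CCAAT letters in capitals.
SLC41A1: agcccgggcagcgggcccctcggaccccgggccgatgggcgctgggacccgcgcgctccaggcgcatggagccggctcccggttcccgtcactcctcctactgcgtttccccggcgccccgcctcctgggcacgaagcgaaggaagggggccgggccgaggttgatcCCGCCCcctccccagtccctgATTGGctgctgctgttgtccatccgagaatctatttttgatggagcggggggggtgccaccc
It held 24 CpG dinucleotides, 1 GC box and 1 CCAAT box, the latter read on the opposite strand as ATTGG.

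All 7 genes of metabolism and mitochondria fell in MCF10Ca1a against MCF10A, with a median of -1.17, beside -1.29 in MCF10AT1. The share that fell over all tested genes was 41.9%. ABCB10, a transporter of the inner mitochondrial membrane, had 99.3, 85.9 and 80.8 CPM in the 3 MCF10A libraries, 30.7, 34.0 and 32.3 in MCF10AT1 and 8.55, 8.11 and 7.47 in MCF10Ca1a. The lines lay in the order MCF10A, MCF10AT1, MCF10Ca1a without overlap, and ABCB10 fell by 3.46 ± 0.09 on the log2 scale (SE; edgeR adjusted p = 2.75e-13) in MCF10Ca1a. FH, the fumarate hydratase of the citric acid cycle and a tumour suppressor of the kidney, had 295, 285 and 291 CPM in the 3 MCF10A libraries, 162, 169.7 and 155 in MCF10AT1 and 75.6, 76.3 and 75.7 in MCF10Ca1a. It fell by 1.94 ± 0.05 on the log2 scale (SE; edgeR adjusted p = 4.92e-13). EPHX1, the microsomal epoxide hydrolase that detoxifies reactive epoxides, had 60.04, 54.2 and 48.5 CPM in the 3 MCF10A libraries, 12.3, 11.3 and 11.2 in MCF10AT1 and 30.6, 30.02 and 33.7 in MCF10Ca1a. Here MCF10AT1 was the lowest line, at a log2 change of -2.23, and MCF10Ca1a lay between, where EPHX1 fell by 0.79 ± 0.08 on the log2 scale (SE; edgeR adjusted p = 3.25e-07) against MCF10A. TOMM20, the import receptor of the outer mitochondrial membrane, had 637, 680.5 and 711 CPM in the 3 MCF10A libraries, 387, 393 and 386 in MCF10AT1 and 424, 425 and 425 in MCF10Ca1a. It fell by 0.67 ± 0.05 on the log2 scale (SE; edgeR adjusted p = 5.17e-08). DEGS1, GUK1 and BPNT1, which act in ceramide, guanine nucleotide and inositol phosphate metabolism, fell by 1.77, 1.17 and 0.77 on the log2 scale.

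Of the 5 genes of translation and RNA processing, 4 fell in MCF10Ca1a against MCF10A and EPRS1 did not pass (41.9% of all tested genes fell), with medians of -0.78 in MCF10Ca1a and -1.08 in MCF10AT1. EPRS1, the synthetase that charges the tRNAs of glutamate and proline, had 544, 487 and 455 CPM in the 3 MCF10A libraries, 290.3, 285 and 254 in MCF10AT1 and 534, 547 and 546 in MCF10Ca1a. MCF10AT1 was lowest and MCF10Ca1a lay at the upper edge of the MCF10A libraries, at 0.13 ± 0.07 (log2 change and SE, with an edgeR adjusted p of 0.107) against MCF10A. With DESeq2 size factors that change was 0.17 and passed, and on log2(TPM + 1) it was 0.28 and passed. NVL, which acts in ribosome assembly, fell by 1.70, ANGEL2, an RNA phosphatase, by 0.93, TARBP1, an RNA methyltransferase, by 0.78 and IARS2, the mitochondrial synthetase for isoleucine, by 0.73 on the log2 scale.

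Among the 4 genes of protein turnover, CAPN2, FBXO28 and DESI2 fell in MCF10Ca1a (41.9% of all tested genes fell and 39.0% rose) and WDR26, a subunit of the CTLH ubiquitin ligase, rose by 0.34 ± 0.05 on the log2 scale (SE; edgeR adjusted p = 1.82e-05). DESI2, a peptidase of the DeSI family and the last gene of the span, had 206, 204 and 202 CPM in the 3 MCF10A libraries, 92.2, 97.8 and 89.2 in MCF10AT1 and 83.2, 86.4 and 82.4 in MCF10Ca1a. It fell by 1.28 ± 0.05 on the log2 scale (SE; edgeR adjusted p = 2.32e-11) against MCF10A. Its log2 change against MCF10AT1 was -0.15, and 0.10 on log2(TPM + 1). CAPN2, the large subunit of a calcium-activated protease, fell by 0.39 and FBXO28, an F-box protein, by 0.53 on the log2 scale. The remaining genes, the secreted factor NENF and the putative nuclease TATDN3, fell by 0.74 and 1.06.

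The listed genes were expressed above the general level per length. Their median was 48.4 TPM in MCF10A, 21.0 in MCF10AT1 and 31.7 in MCF10Ca1a, beside 7.20, 6.45 and 7.54 over all tested genes, and 53 of 58 rows were at or above the median of all tested genes in MCF10A. The levels in MCF10A ran from 0.915 TPM for RHOU to 1020 TPM for SRP9. RefSeq promoter windows of 250 bases were at hand for 53 of the 57 symbols, 73 windows in all, with a median of 22 CpG dinucleotides against 11 over all 35116 windows. A GC box (GGGCGG, both strands) was present in 58.9% of the 73 windows and 42.6% of all, CCAAT in 30.1% and 32.0%, TATAAA in 2.74% and 10.7%, and the ETS motif CCGGAAG in 16.4% and 8.52%. Windows of a gene overlap where its starts lie close together. These shares describe letters in the windows and say nothing of a factor's binding.

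Transcript usage could be tested in 31 of the 58 rows. Between MCF10Ca1a and MCF10A, 14 of the 31 differed at an adjusted p under 0.05, against 48.3% of the 8349 genes tested. With each library left out in turn this count ran from 10 to 14. Between MCF10AT1 and MCF10A 4 rows passed (12.0% of all), and between MCF10Ca1a and MCF10AT1 14 rows (41.4%). Both are given as a description. The count between MCF10AT1 and MCF10A was 2 without MCF10A replicate 3 (8.50% of all genes tested) and also without MCF10AT1 replicate 2 (7.09%). The count between MCF10Ca1a and MCF10AT1 was 9 with the replicate number as a block (33.4%). The 5 listed genes with the smallest p between MCF10Ca1a and MCF10A were RPS6KC1, MDM4, ANGEL2, SRP9 and BROX. RPS6KC1-202, with 3198 coding bases the longest coding form among those tested for that kinase-like gene, took 25.7, 31.0 and 32.2% in the 3 MCF10A libraries, 12.3, 20.1 and 24.9% in MCF10AT1 and 0, 0 and 0% in MCF10Ca1a. It was listed at 0 in every MCF10Ca1a library. The adjusted p-values given here, from limma, are those of the whole gene in MCF10Ca1a against MCF10A, which was 1.42e-06 for RPS6KC1. ANGEL2-201 took 23.9, 20.7 and 19.2% in the 3 MCF10A libraries, 8.84, 16.5 and 17.7% in MCF10AT1 and 3.69, 2.14 and 3.31% in MCF10Ca1a. The longer coding form ANGEL2-202 took 60.3% ± 0.493 (SD, n = 3) in MCF10A and 78.8% ± 1.39 in MCF10Ca1a (adjusted p of the gene = 6.86e-04, limma). For BROX, a Bro1-domain protein of endosomes, the share of BROX-208 was 8.71, 9.09 and 9.46% in the 3 MCF10A libraries, 10.9, 20.6 and 22.2% in MCF10AT1 and 36.2, 25.1 and 32.2% in MCF10Ca1a. The adjusted p of the gene was 0.00142 (limma).

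Some of the listed genes share positions with other tested genes, which limits their counts where reads could be assigned to either. Of the 58 rows, 12 overlap another tested gene and 3 do so on the same strand. The largest overlap with a gene outside the list was on the same strand. There the TBCE row ENSG00000285053 shares 15963 bases with GGPS1, a synthase of isoprenoid metabolism. GGPS1 had a mean of 81.0 CPM in MCF10A against 14.6 for that TBCE row, so the level of that row may hold reads of GGPS1. The TBCE row ENSG00000284770, at 58.6 CPM, overlaps the other TBCE row but not GGPS1. EPHX1 and TMEM63A overlap by 28 bases on opposite strands. BROX shares 658 bases with AIDA on the opposite strand, and AIDA had 253 CPM in MCF10A against 106 for BROX. The library kit keeps strand, but whether the counting used it is not given in the sources used here. Named processed copies elsewhere in the genome held at most 0.125% of the counts of a listed gene, the highest share being that of SRP9.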

How the data were processed

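Polyadenylated RNA of 9 libraries was prepared with a stranded Illumina mRNA kit, per the labels' protocols. The authors deposited estimated counts and TPM per gene and per transcript, and gene counts named as length-scaled and scaled. Salmon and hg38 are named in the submitters' processing notes. The Salmon version and the annotation release are not given in the sources used here. Deposited estimated counts were rounded. Columns were matched to libraries by name.

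Low genes were dropped with filterByExpr, grouped by line, at its minimum count of 10 and total of 15, so that 17910 of 62666 remained. The 9 libraries, with 32.9 to 69.5 M (mega) counts, were fitted together with edgeR's quasi-likelihood test (edgeR 4.0.16, R 4.3.3, TMM factors 0.978 to 1.02), with Benjamini-Hochberg adjustment over all genes at 0.05. CPM values use TMM-scaled totals. A line with RHOU counts this low is limited by counting error, and its exact interval covers counting error only. Usage was tested with limma 3.58.1 on log2((transcript + 0.5)/(rest of the gene + 0.5)) for transcripts with at least 10 counts in 3 libraries and a mean share of at least 10% in any line. TPM alternatives used the deposited TPM with a pseudocount of 1 or 0.1, so their log2 changes understate low genes. Positions came from GENCODE 29, which matched 58227 genes (92.9%), and promoters from RefSeq.

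The listed genes, their role groups and the lists of markers were chosen with earlier results of these data known. Values in every library were given for the first and last gene, the 5 lowest and 5 highest in MCF10AT1 and in MCF10Ca1a against MCF10A, and 13 genes of known role. For usage, the 5 smallest p were named. The remaining values were chosen after they were seen. Some items are not reported here.

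Simulated counts for MCF10AT1 against MCF10A were drawn with known changes in 200 genes. Among the 17418 that passed its filter, edgeR found 199 of these and called 17 others, and it called 0 where nothing was changed. DESeq2 1.42.0 recovered 198 with 26 false calls among 17910 genes. The usage test recovered 187 of 200 with 3 false calls among 8349 genes, and made 2 calls without changes. Alternatives were DESeq2 size factors and its Wald test, no filter, the deposited scaled and length-scaled counts, a block for replicate number, limma on log2(TPM), only the lines compared, each library left out in turn, 10 Mb windows, another share minimum, usage ratios from TPM, protein-coding genes only and leaving out the second TBCE row, the last 2 of which were added after the data were seen.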

Additional observations from a re-analysis of the deposited data

How the results depend on the processing

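Of the counts and medians recomputed under alternatives, 190 stayed within their margin and 32 moved, and none changed direction. For MCF10AT1 against MCF10A the median over the listed genes was -1.10 on log2(TPM + 1), with or without a filter, and -1.14 on log2(TPM + 0.1). The other genes of the interval gave -0.54 on log2(TPM + 1) and -0.96 for protein-coding genes alone. For MCF10Ca1a against MCF10A the listed genes gave -0.58 with DESeq2 size factors and with its Wald test, -0.69 with no filter, -0.45 on log2(TPM + 1) with or without a filter, -0.46 on log2(TPM + 0.1) and -0.67 without the second TBCE row. The other genes gave -0.38 with size factors, -0.16 on log2(TPM + 1) and -0.70 for protein-coding genes. The distal windows had a median of -0.48 at 5 Mb, with 95 of 515 windows on other chromosomes below it. At 10 Mb the median was -0.73, with 12 of 281 below it. For MCF10Ca1a against MCF10AT1 the listed genes gave 0.40 with size factors and with the Wald test, and 0.27 with no filter. Length-scaled and scaled counts gave 0.41 and 0.42, log2(TPM + 1) gave 0.61 with or without a filter, and log2(TPM + 0.1) gave 0.69. On log2(TPM + 1) 9 rows were lower in both fits, against 28.5% of all tested genes with the filter and 16.1% without it. The other genes gave 0.42 with size factors and 0.33 on log2(TPM + 1), and the distal windows 0.29 at 10 Mb beside 0.33 at 5 Mb. Relative to the median of all genes, which moved by up to 0.25 on the TPM scales, the listed genes kept their sign in all 3 comparisons. The causes were not tested.

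Leaving out each library, the rows called lower ranged from 57 to 58 (MCF10AT1) and from 41 to 42 (MCF10Ca1a) against MCF10A. Usage calls between MCF10AT1 and MCF10A ranged from 2 to 3, with 2 without MCF10A replicate 3 (8.50% of all genes tested) or MCF10AT1 replicate 2 (7.09%). They ranged from 10 to 14 between MCF10Ca1a and MCF10A and from 10 to 15 between MCF10Ca1a and MCF10AT1. Same-numbered libraries correlated between -0.06 and 0.05 in their deviations, and libraries of different numbers between -0.074 and 0.095. No pairing by number was seen, but with 3 libraries per line this check cannot exclude one. With the replicate block, the counts of rows called lower against MCF10A were also 58 and 41, with medians of -1.05 and -0.62. Usage calls between MCF10Ca1a and MCF10AT1 fell from 14 to 9 there, while the share over all genes tested went from 41.4% to 33.4%. Among single genes 11 values of 3 genes changed sign, and none of those values passed. In MCF10Ca1a against MCF10A, the second TBCE row went to -0.00276 with no filter and -0.11 without MCF10Ca1a replicate 2. ENAH went to 0.024 and 0.033 with length-scaled and scaled counts and 0.19 on each TPM setting, and leaving out each library gave -0.10 (without MCF10A replicate 3) to 0.0073 (without MCF10A replicate 1). DESI2 against MCF10AT1 went to 0.10 on log2(TPM + 1), with or without a filter, and 0.11 on log2(TPM + 0.1). Depth limits RHOU most, with 3 counts in MCF10Ca1a.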

Other observations

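Within the 1q span some genes outside the list stood far from its median, in both directions. They were named as the 5 lowest and the 5 highest of the 214 by their log2 change in MCF10AT1 against MCF10A, so the values are a description. PGBD5, which is derived from a transposase, was counted 1228, 1016 and 1086 times in the MCF10A libraries, against 0, 1 and 1 times in those of MCF10AT1, and 0, 1 and 0 times in those of MCF10Ca1a. It was close to silent in both derived lines. CHI3L1, a secreted chitinase-like protein, had 243, 238 and 192 counts in MCF10A and at most 3 in any library of the other lines. EDARADD, an adapter of the ectodysplasin receptor, had 341, 299 and 335 counts in MCF10A and at most 11 elsewhere. DISC1, a centrosomal scaffold, was at 2.42 ± 0.262 CPM (SD, n = 3) in MCF10A, 0.158 ± 0.0579 in MCF10AT1 and 0.125 ± 0.0482 in MCF10Ca1a. SLC26A9, an anion channel, had few counts throughout: 5, 10 and 6 in MCF10A and 15, 12 and 21 in MCF10Ca1a, while each MCF10AT1 library had 0.

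The highest genes were at 0.696 CPM or less in MCF10A on average. LEMD1, a testis-type antigen gene, had 0.0349 ± 0.0317 CPM (SD, n = 3) in MCF10A, 1.35 ± 0.146 in MCF10AT1 and 7.11 ± 0.331 in MCF10Ca1a. BLACAT1, a long noncoding RNA within the bounds of LEMD1, had 0.696 ± 0.122, 13.1 ± 1.30 and 16.2 ± 1.62 CPM. CHRM3, a muscarinic acetylcholine receptor, was highest in MCF10AT1, with 0.203 ± 0.0678, 5.96 ± 0.0359 and 1.76 ± 0.161 CPM, and its antisense gene CHRM3-AS2 was at 0 in each MCF10A library, at 22, 20 and 17 counts in those of MCF10AT1, and at 71, 60 and 56 counts in those of MCF10Ca1a. BLACAT1 lies on the same strand as LEMD1, and whether the counting used strand is not given, so reads of these pairs may not be separated. ENO1P1, a processed copy of ENO1, was listed at 0 in MCF10A, at 46, 27 and 39 counts in the MCF10AT1 libraries, and at 22, 30 and 21 counts in the MCF10Ca1a libraries, and its reads cannot be told apart from those of its parent with certainty.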
